A study of Mus musculus with 56 samples.

Results

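The genes described here are 9 genes of branched-chain amino acid (BCAA) degradation in the anterior hypothalamus of mice, chosen by name as an amino acid pathway and not by their rhythm in these data. They are Bcat1, Bcat2, Bckdha, Bckdhb, Dbt, Bckdk, Ivd, Mccc1 and Hibch, 9 of the 17564 genes in the deposited table, and all 9 passed the filter on low values. RNA came from 56 C57BL/6J female mice of 9 weeks with no genetic change, kept in 12 h of light and 12 h of dark. After 7 days of acclimation they were fed for 7 days in daytime-restricted feeding (DRF, food in the light period only) or nighttime-restricted feeding (NRF, food in the dark period only, the reference). Each regimen held 28 mice, with 4 separate mice at each of 7 times, zeitgeber time (ZT) 0, 4, 8, 12, 16, 20 and 24, where ZT0 and ZT24 are lights on and ZT12 is lights off. The comparisons ask whether these transcripts differ between times in the light and in the dark, inside and outside the feeding window, or both.

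Leucine, isoleucine and valine share the first steps of their breakdown. Branched-chain aminotransferases move the amino group to 2-oxoglutarate, which yields glutamate and a branched-chain keto acid. In the brain this transfer is known as a source of nitrogen for glutamate. The keto acid is then decarboxylated, irreversibly, by the mitochondrial branched-chain keto acid dehydrogenase (BCKDH) complex, which a kinase switches off by phosphorylation and a phosphatase switches on again. Each amino acid then follows its own arm of mitochondrial enzymes.

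Bckdk, the kinase that inhibits the complex, passed the test of fed against fasted mice, and 1 call among 9 members is near the 10.4% of all genes that passed. It was lower inside the feeding window, by 0.19 ± 0.03 (SE) on the log2 scale. Without 2 libraries described below, this difference passed in the light and not in the dark. Over both regimens together Bckdk was also lower in the dark than in the light, by 0.15, a change that did not pass within DRF. Dbt, Bcat2, Ivd and Mccc1 were higher in the dark than in the light, by 0.11 to 0.26 on the log2 scale over both regimens. Bcat1, Bckdha, Bckdhb and Hibch passed neither test.

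All values below are library-scaled read counts (CPM) that were undone from the deposited values, and differences are in log2(CPM + 1), with a pseudocount of 1. The normalized library size was between 29591266 and 34493344 reads per mouse, and the lowest count of any member in any mouse was 163 reads, for Bcat2. For 8 members the undone counts were whole reads in 100% of mice. The reads of Bckdk were estimated counts with decimals, whole in 25% of mice, so reads shared with other transcripts were divided by the authors' counting program and its level is less certain. Replicates correlated within their group at a Pearson r of 0.984 to 0.998. The libraries of DRF ZT16 replicates 3 and 4 stood apart, in that genes rich in G and C were raised in them, by 0.307 and 0.444 log2 units per 10% of GC content, against -0.126 to 0.138 in the other 54. Many of the contrasts and calls that rest on ZT16 in DRF are given also without these 2 libraries below, with a new fit of the remaining 54. The tissue is a mixture of cells, so that fewer cells of a type and less RNA per cell cannot be told apart.

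Per kilobase of exon, the members spanned an 11-fold range of level. The length is that of all annotated exons of a gene joined, from 1805 bases for Bckdhb to 10952 for Mccc1, and the order depends on it. Before division by length Mccc1 had a mean of 30.7 CPM, above Bckdhb at 24.4 and Dbt at 23.7. Bckdha, the catalytic alpha subunit of the first enzyme (E1) of the complex, had a mean of 20.7 ± 1.79 CPM per kb (SD, n = 56). Ivd, isovaleryl-CoA dehydrogenase of the leucine arm, followed at 20.2 ± 1.31, and Bcat1, the cytosolic aminotransferase, at 19.4 ± 0.80. These 3 means lay within an SD of Bckdha from each other. Bckdhb, the E1 beta subunit, had 13.5 ± 0.87 CPM per kb, Bckdk 9.85 ± 0.91, and Dbt, the transacylase core (E2) of the complex, 7.08 ± 0.74. The lowest were Hibch, which releases 3-hydroxyisobutyrate in the valine arm, at 3.63 ± 0.28, Mccc1, the alpha subunit of the leucine arm's methylcrotonyl-CoA carboxylase, at 2.80 ± 0.17, and Bcat2, the mitochondrial aminotransferase, at 1.82 ± 0.30. By this length the subunits of the complex were unequal at the RNA level. E1 alpha stood at a median of 3.01 times E2 in DRF and 2.80 times in NRF, per length. Bcat1 exceeded Bcat2 in every mouse, with a median ratio of 11.4 in DRF (7.36 to 13.8) and 10.5 in NRF (8.86 to 14.3).

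**Figure D1:**
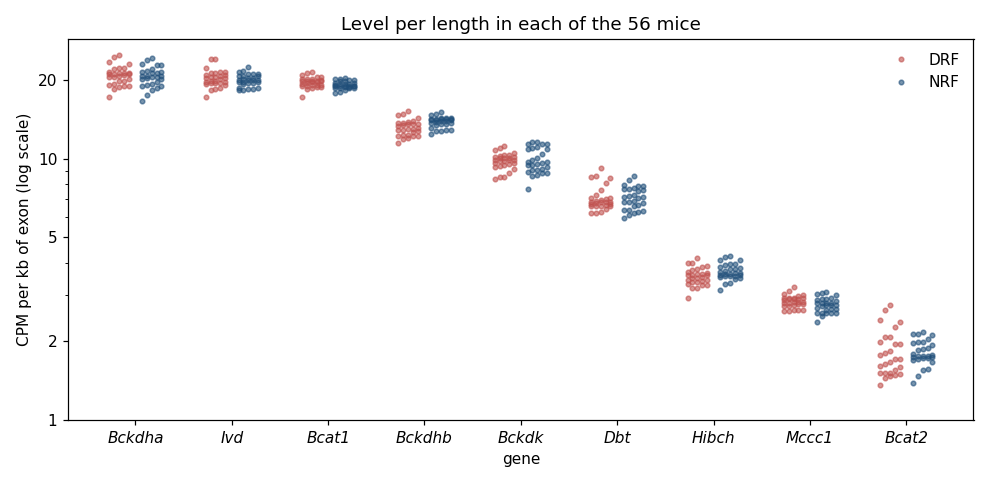
Level of each member per length in CPM per kb of exon (log axis), with 1 point for each of the 56 mice, DRF in red and NRF in blue. Bckdha, Ivd and Bcat1 lie together near 20 CPM per kb, and Bcat2 is lowest with a mean of 1.82.

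The crossed design sets feeding apart from the light and dark times, but light and clock time changed together and cannot be told apart. At ZT4 and ZT8 (light) DRF mice were inside and NRF mice outside their feeding window, and at ZT16 and ZT20 (dark) the reverse held. Mice inside the window are called fed and those outside fasted, although intake of single mice was not analysed here. The fed-minus-fasted contrast compared 16 with 16 mice. It is the same number as the regimen difference in the change from light to dark, divided by 2. It therefore also holds any other difference between the regimens in that change. In this contrast 1 of the 9 members passed, where 10.4% of the 16017 genes tested did (adjusted p under 0.05, limma). In the dark-minus-light contrast 5 of 9 members passed, 4 higher in the dark and 1 lower, against 18.1% of all genes, 9.02% higher and 9.08% lower. The median member differed by 0.052 between dark and light and by -0.017 between fed and fasted, while the medians of all genes were -0.0081 and 0.0015. The same 5 members passed between dark and light without the 2 GC-shifted libraries, with 0.28 for Dbt, 0.23 for Bcat2, 0.12 for Ivd, 0.11 for Mccc1 and -0.18 for Bckdk. Without ZT16 altogether Bckdha (adjusted p = 0.0333) and Hibch (adjusted p = 0.00434) passed as well. Over all genes 4915 of 16017 passed without the 2 libraries and 4543 without ZT16, in place of 2899. In the fed-minus-fasted contrast 588 of 16017 genes passed without the 2 libraries, in place of 1668, and Bckdk alone among the members.

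**Figure D2:**
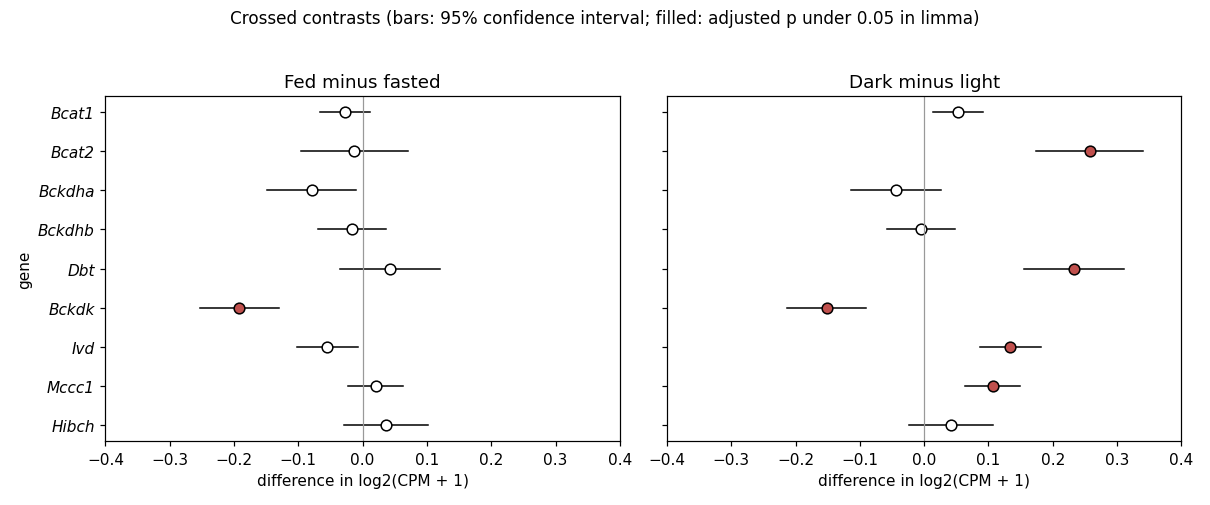
Difference in log2(CPM + 1) of each member, fed minus fasted on the left and dark minus light on the right, with bars for the 95% confidence interval and filled circles for an adjusted p under 0.05 in limma (16 mice a side). Bckdk alone is filled on the left at -0.19, and on the right Bcat2, Dbt, Ivd and Mccc1 are filled above 0 and Bckdk below it.

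Bckdk was highest in NRF mice in the light. At ZT4 the 4 NRF mice had 40.4, 41.9, 42.1 and 43.0 CPM, and the 4 DRF mice, with food present, had 33.7, 35.2, 31.4 and 30.9. At ZT8 the NRF mice had 41.97, 40.5, 40.1 and 42.7 CPM, against 38.1, 37.4, 37.1 and 36.3 in DRF. Every fasted mouse thus stood above every fed mouse at both times in the light. In the dark the order of the regimens was opposite but the groups overlapped. At ZT16 the NRF mice, now fed, had 33.5, 28.3, 33.7 and 31.9 CPM, and the fasted DRF mice 35.0, 31.5, 37.3 and 41.3. At ZT20 the NRF mice had 32.6, 32.8, 35.3 and 32.7, and the DRF mice 37.4, 32.7, 36.2 and 37.1.

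Over all 4 conditions, Bckdk had a mean of 33.8 ± 2.64 CPM (SD, n = 16) in fed and 38.8 ± 3.61 (n = 16) in fasted mice. The difference was -0.19 ± 0.03 on the log2 scale (95% interval -0.25 to -0.13, adjusted p = 7.00e-05, limma), and it passed in all 19 alternatives fitted for this contrast (3 of which left out ZT0, ZT12 or ZT24, times outside it), between -0.24 and -0.048, the last on the compressed deposited scale. Within the light it was -0.24 ± 0.04 (adjusted p = 5.98e-04), and within the dark -0.14 ± 0.04 (adjusted p = 0.0336), where 6.82% and 10.1% of all genes passed. Without the 2 GC-shifted libraries the pooled difference was -0.16 (adjusted p = 7.97e-04) and that in the light -0.24 (adjusted p = 1.12e-04), but that in the dark was -0.080 (adjusted p = 0.417). The difference in the light was -0.15 (adjusted p = 0.332) when ZT4 was left out and -0.34 (adjusted p = 0.00284) when ZT8 was left out. That in the dark was -0.10 (adjusted p = 0.336) without ZT16, and it also lost its call without ZT8 and without replicates 1, 3 or 4 (adjusted p from 0.0509 to 0.404).

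**Figure D3:**
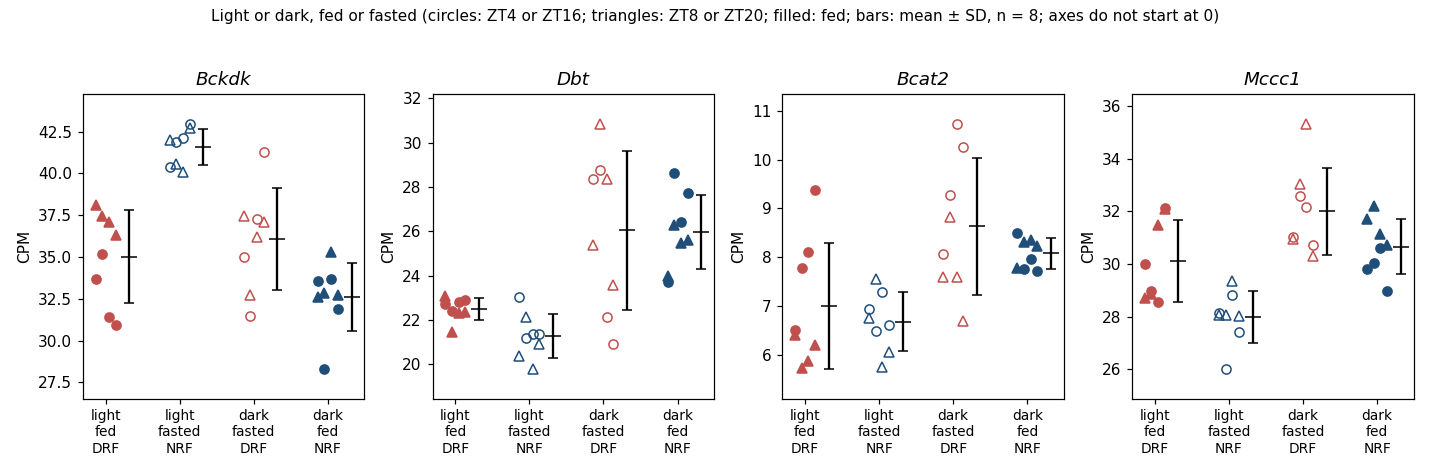
CPM of Bckdk, Dbt, Bcat2 and Mccc1 in the 4 conditions of light and feeding, with circles for ZT4 or ZT16, triangles for ZT8 or ZT20, filled symbols for fed mice and black bars for the mean and SD of 8 mice. For Bckdk, the fasted NRF mice in the light (40.1 to 43.0 CPM) lie above the fed DRF mice (30.9 to 38.1). The means of Dbt and Bcat2 are higher in the dark in both regimens, and in DRF the light and dark mice overlap for both genes.

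Seen as a daily profile, Bckdk fell from light to dark in NRF and stayed nearly level in DRF. In NRF the mean was 41.8 ± 1.08 CPM (SD, n = 4) at ZT4, 41.3 ± 1.23 at ZT8, 37.1 ± 3.12 at ZT12 and 31.9 ± 2.51 at ZT16, a change from light to dark of -0.34 ± 0.04 (adjusted p = 7.51e-08, limma). In DRF the same change was 0.040 ± 0.043 (adjusted p = 0.671), with a dip to 32.8 ± 1.995 CPM at ZT4 and means between 35.9 and 38.1 at all other times (33.2 at ZT16 in the 2 mice left without the GC-shifted libraries). Over both regimens the change was -0.15 ± 0.03 (adjusted p = 2.91e-04), a call that was lost without ZT8 (adjusted p = 0.0979). Without the 2 GC-shifted libraries it was -0.18, and the change within DRF alone is not given for that fit. The 24-h cosine of Bckdk had an amplitude of 0.20 ± 0.02 in NRF with its peak at ZT6.40 ± 0.39 h (SE), and of 0.023 ± 0.030 in DRF. The rhythm was called in NRF (adjusted p = 3.47e-06, from JTK_CYCLE and Lomb-Scargle tests combined) and not in DRF (adjusted p = 1). The difference between the 2 rhythms itself passed (adjusted p = 4.00e-04, limma) and remained past the threshold in all 18 alternatives. Of the 9 members, Bckdk alone passed this test of differing rhythms, against 11% of all genes.

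**Figure D4:**
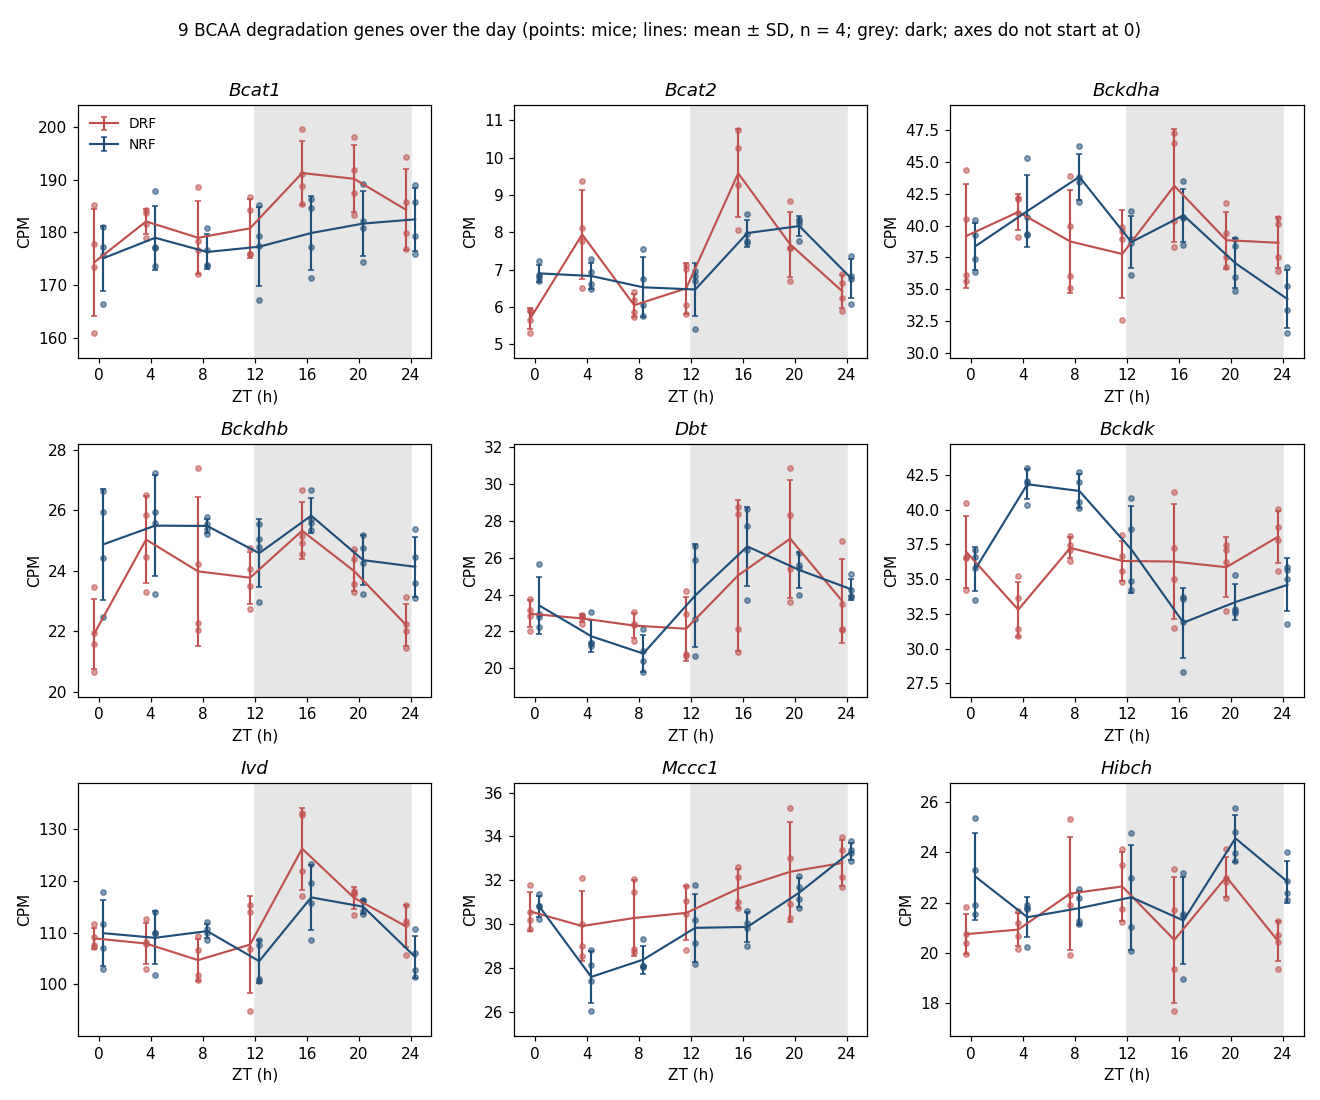
CPM of the 9 members at each ZT (h) in DRF (red) and NRF (blue), with points for single mice, lines for group means and bars for the SD of 4 mice, on axes that do not start at 0, with the dark period in grey. Bckdk separates by regimen at ZT4 and ZT8, while the means of Dbt and Ivd are higher at ZT16 and ZT20 than at ZT4 and ZT8 in both regimens, and Bcat2 in DRF is also high at ZT4.

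The members higher in the dark came from different steps. Within DRF, 3 of 9 members passed between dark and light, where 3.35% of all genes did, and within NRF 4 of 9, where 26.6% did. Dbt, the E2 core, had 21.9 ± 0.998 CPM in the light (SD, n = 16) and 26.0 ± 2.70 in the dark, a difference of 0.23 ± 0.04 (adjusted p = 2.05e-05). At ZT8 the NRF mice had 20.4, 22.1, 19.8 and 20.9 CPM and the DRF mice 23.1, 21.5, 22.3 and 22.4. At ZT20 the NRF mice had 23.99, 26.3, 25.5 and 25.6 CPM and the DRF mice 25.4, 30.9, 28.4 and 23.6. All 8 mice at ZT20 exceeded all 8 mice at ZT8. At ZT16 the DRF mice split, with 28.4 and 28.8 CPM in replicates 1 and 2 and 22.1 and 20.9 in the GC-shifted replicates 3 and 4. The change from light to dark passed within DRF (0.19 ± 0.06, adjusted p = 0.0391) and within NRF (0.28 ± 0.06, adjusted p = 2.04e-04), and without the 2 GC-shifted libraries it was 0.29 (adjusted p = 4.09e-04) within DRF.

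Bcat2, the mitochondrial aminotransferase, had 6.84 ± 0.99 CPM in the light (SD, n = 16) and 8.35 ± 1.02 in the dark, a difference of 0.26 ± 0.04 (adjusted p = 1.00e-05, limma). In NRF the 8 dark mice ranged from 7.71 to 8.50 CPM and the 8 light mice from 5.75 to 7.56, without overlap. In DRF the ranges overlapped, with 6.70 to 10.7 CPM in the dark and 5.73 to 9.39 in the light, since ZT4 was high as well. The DRF mice had 6.51, 7.78, 8.12 and 9.39 CPM at ZT4 but 6.39, 5.73, 5.86 and 6.20 at ZT8. Without ZT8 the dark-minus-light difference was 0.16 and no longer passed (adjusted p = 0.0615), and within DRF it went from 0.27 (adjusted p = 0.00319) to 0.21 (adjusted p = 0.0550) when the GC-shifted libraries were left out.

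Ivd, which takes leucine's isovaleryl-CoA to methylcrotonyl-CoA, had 108.0 ± 4.07 CPM in the light (SD, n = 16) and 118.7 ± 6.50 in the dark, a difference of 0.13 ± 0.02 (adjusted p = 4.07e-05). In DRF the 8 dark mice (113.4 to 133.0 CPM) lay above the 8 light mice (100.9 to 112.6), and the change was 0.19 ± 0.03 (adjusted p = 1.87e-04). In NRF it was 0.079 ± 0.033 (adjusted p = 0.0700), with ranges of 108.6 to 123.2 and 101.8 to 114.0 CPM that overlapped, and it passed there without the 2 GC-shifted libraries (adjusted p = 0.0464). Ivd was highest in the GC-shifted libraries at ZT16 in DRF, with 132.6 and 133.0 CPM against 121.9 and 117.1 in the other mice of that group, and without them the change within DRF was 0.15 (adjusted p = 0.00763).

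Mccc1, the biotin-carrying subunit of the enzyme that follows Ivd, rose from 29.0 ± 1.66 CPM (SD, n = 16) in the light to 31.3 ± 1.51 in the dark, a difference of 0.11 ± 0.02 (adjusted p = 2.83e-04). The change from light to dark passed within NRF and not within DRF. In NRF the 4 mice at ZT4 had 28.1, 26.0, 28.8 and 27.4 CPM. Those at ZT24, a time outside this contrast, had 32.9, 33.4, 33.3 and 33.8, with no overlap. At ZT0, the same clock time as ZT24, the NRF mice had 30.2, 31.4, 30.8 and 30.8. In the light Mccc1 was also higher in fed DRF than in fasted NRF mice, 30.1 ± 1.56 against 27.99 ± 0.98 CPM (n = 8), by 0.10 ± 0.03 (adjusted p = 0.0353), while in the dark the fed-minus-fasted difference was -0.060 ± 0.030 (adjusted p = 0.187). In the pooled fed-minus-fasted contrast it was 0.020 ± 0.021 (adjusted p = 0.546). The dark-minus-light call of Mccc1 was lost by a small margin when replicate 2 was left out of every group (adjusted p = 0.0518).

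By the rhythm tests, 5 of the 9 members were rhythmic in NRF, where 30.7% of the 16245 genes tested were, and 1 of 9 in DRF, where 1.03% were. In NRF, Mccc1 peaked at ZT20.4 ± 0.8 h with a cosine amplitude of 0.090 (adjusted p = 2.79e-05), Dbt at ZT18.1 ± 0.5 h with 0.16 (adjusted p = 1.51e-04), and Bcat2 at ZT18.5 ± 0.8 h with 0.14 (adjusted p = 0.00279). Bckdk and Bckdha peaked in the light instead, Bckdha at ZT9.23 ± 1.01 h with an amplitude of 0.11 (adjusted p = 0.00665). Bckdha in NRF fell from 41.8, 46.2, 43.8 and 43.4 CPM at ZT8 to 35.3, 36.7, 33.4 and 31.6 at ZT24. At ZT0, the same clock time as ZT24, it was higher, with 37.4, 39.3, 40.5 and 36.4 CPM. The NRF calls of Bcat2 and Bckdha were lost in 8 and 7 of 20 alternatives, among them leaving out replicate 1 for both. That of Bckdha was also lost without ZT8 or without ZT24, and that of Mccc1 with library trends removed. In DRF the rhythmic member was Ivd, with its peak at ZT17.8 ± 0.7 h and an amplitude of 0.11 (adjusted p = 0.00859). This call was lost when any single replicate number was left out, and a cosine test without the 2 GC-shifted libraries called Dbt (adjusted p = 0.00821) and not Ivd (adjusted p = 0.0593). For the members other than Bckdk the rhythms of the regimens did not differ past the threshold (adjusted p from 0.122 for Bckdha to 0.599 for Bckdhb), so a call in NRF alone does not show a difference.

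Where the fitted peaks were called in NRF, Dbt in the dark and Bckdk in the light lay 11.65 h apart, and their 14 group means had a Pearson r of -0.68, the lowest among the 36 pairs of members. The highest was 0.81, between Bcat2 and Ivd. When the 2 GC-shifted libraries were left out, these r were -0.70 and 0.74, and the lowest was -0.75, between Bckdha and Mccc1. All r describe 14 group means that share libraries. The ratio of Bckdk to Ppm1k, the phosphatase that activates the complex, had a median of 1.001 in fed mice (0.75 to 1.25, n = 16) and 1.36 in fasted mice (0.74 to 2.09) per length. Ppm1k alone was 55.1 ± 3.64 CPM in fed and 51.5 ± 9.81 in fasted mice (0.12 ± 0.06 on the log2 scale, adjusted p = 0.146). The lowest level of Ppm1k in a fasted mouse was 32.2 CPM, and without the 2 GC-shifted libraries it was 44.1, the fasted mean was 53.8 ± 7.90 CPM (SD, n = 14) and the difference 0.019 ± 0.039 (adjusted p = 0.840). The ratio in fasted mice then had a median of 1.32 and a highest value of 1.51.

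Averaged over the 7 times, 1 of 9 members differed between the regimens, where 10.6% of all genes did. Bckdhb was lower in DRF by 0.071 ± 0.020 on the log2 scale (adjusted p = 0.0172, limma). At ZT0 the DRF mice had 21.6, 22.0, 20.6 and 23.4 CPM and the NRF mice 26.6, 25.9, 22.5 and 24.4, which overlapped in 1 mouse of each. The level call was lost without ZT0, without ZT24 and without replicates 1, 2 or 3, with adjusted p up to 0.113. Mccc1, higher in DRF by 0.045 ± 0.016, missed the threshold (adjusted p = 0.0600).

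At single times, 4 of the 63 pairs of member and time passed, against 4.54% of all pairs of gene and time. These were Bckdk at ZT4 (-0.34 ± 0.06, DRF minus NRF, adjusted p = 0.00103), Bckdk at ZT16 (0.18 ± 0.06, adjusted p = 0.0338), Bcat2 at ZT16 (0.23 ± 0.08, adjusted p = 0.0412) and Bckdhb at ZT0 (-0.17 ± 0.05, adjusted p = 0.0445). Over all genes 3.95% passed at ZT4, 20.3% at ZT16 and 4.5% at ZT0. Both calls at ZT16 were lost without the 2 GC-shifted libraries, with 0.060 (adjusted p = 0.793) for Bckdk and 0.10 (adjusted p = 0.731) for Bcat2. The call of Bckdk at ZT4 missed the threshold by a small margin when replicate 4 was left out (-0.30, adjusted p = 0.0530), and that of Bckdhb at ZT0 was lost without replicates 1, 2 or 3 (adjusted p from 0.151 to 0.380). No member passed at ZT8, ZT12, ZT20 or ZT24 in limma, where unadjusted p-values were under 0.05 for 3, 0, 0 and 4 of them. At ZT8, where the Bckdk groups did not overlap, its difference was -0.15 ± 0.06 (adjusted p = 0.294), at a time when 0.175% of all genes passed.

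For the 4 members that passed neither of the pooled contrasts, the intervals given are those of the main fit, and some alternatives gave values outside them. Bcat1, the more abundant aminotransferase, ranged from 160.9 to 199.6 CPM over all mice, and differed by 0.052 ± 0.019 between dark and light (95% interval 0.013 to 0.091, adjusted p = 0.0538) and by -0.027 ± 0.019 between fed and fasted (-0.066 to 0.012, adjusted p = 0.359). Its group means lay between 174.3 and 191.3 CPM, the highest at ZT16 in DRF. Without the 2 GC-shifted libraries its dark-minus-light value was 0.046 (adjusted p = 0.0725, limma). Bckdha differed by -0.080 ± 0.035 between fed and fasted (-0.15 to -0.0097, adjusted p = 0.119), and by -0.049 without the 2 GC-shifted libraries (adjusted p = 0.475). Bckdhb differed by -0.0053 ± 0.0264 between dark and light (-0.058 to 0.048), and Hibch by 0.041 ± 0.033 (-0.024 to 0.11). Without ZT16 the value of Hibch was 0.13 (adjusted p = 0.00434, limma), the only 1 of 19 alternatives that passed. Without the 2 GC-shifted libraries it was 0.075 (adjusted p = 0.0616, limma). With library trends removed Bcat1 differed by -0.074 between fed and fasted (adjusted p = 0.0158, limma), also 1 of 19. A p that misses the threshold does not show that these values were equal.

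Sequence upstream of Bckdk and of 3 of the members higher in the dark is shown because Bckdk and these members moved in opposite directions over both regimens. Within DRF alone the change of Bckdk from light to dark did not pass. No window of Dbt was at hand. Each line holds the 250 bases before a transcription start of the gene, from RefSeq, build GRCm38.p6, read 5′ to 3′ on the gene's strand. They lie at chr7:127903823-127904072 (Bckdk, plus strand), chr7:45569903-45570152 (Bcat2, plus strand, 1 of 2 starts), chr2:118861744-118861993 (Ivd, plus strand) and chr3:36000679-36000928 (Mccc1, minus strand). Capitals mark a GC box.
Bckdk: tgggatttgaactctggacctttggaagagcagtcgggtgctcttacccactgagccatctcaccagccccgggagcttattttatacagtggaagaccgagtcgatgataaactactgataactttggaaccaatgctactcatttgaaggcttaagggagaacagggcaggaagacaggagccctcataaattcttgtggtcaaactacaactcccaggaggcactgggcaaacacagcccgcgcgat
Bcat2: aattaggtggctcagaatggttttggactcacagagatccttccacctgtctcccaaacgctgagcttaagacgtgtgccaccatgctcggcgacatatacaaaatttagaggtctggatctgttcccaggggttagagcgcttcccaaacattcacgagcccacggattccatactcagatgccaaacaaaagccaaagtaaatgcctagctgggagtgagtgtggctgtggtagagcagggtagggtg
Ivd: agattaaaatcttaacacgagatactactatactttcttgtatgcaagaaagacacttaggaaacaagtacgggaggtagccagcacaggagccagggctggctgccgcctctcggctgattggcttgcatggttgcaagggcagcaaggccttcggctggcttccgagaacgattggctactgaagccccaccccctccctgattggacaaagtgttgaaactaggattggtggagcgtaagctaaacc
Mccc1: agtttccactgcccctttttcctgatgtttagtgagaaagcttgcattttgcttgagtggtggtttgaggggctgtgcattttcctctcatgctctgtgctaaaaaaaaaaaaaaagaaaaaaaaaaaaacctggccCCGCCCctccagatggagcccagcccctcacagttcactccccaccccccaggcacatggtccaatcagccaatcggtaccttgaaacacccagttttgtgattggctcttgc

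The windows were searched on both strands for an E-box (CACGTG), a cAMP response half-site (TGACG), a GC box (GGGCGG) and the core of a ROR element (AGGTCA), which do not contain one another. Of the 32851 windows of this length in the table, 6.02% held the E-box, 17.8% the half-site, 32.7% the GC box and 14% the ROR core. The windows of Bckdk, Bcat2 and Ivd held none of the 4, and that of Mccc1 held 1 GC box. This says only that these letters are not in these windows. Their GC content was 50% for Bckdk, 50.4% for Bcat2, 51.2% for Ivd and 48.4% for Mccc1, near the median of 52.4% over all windows.

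A further 24 genes of the pathway were listed by role, from transporters to the propionate arm, and all 24 were tested. Between fed and fasted mice 4 passed, all lower in fed mice, against 4.55% of all genes lower. These were Mccc2, the beta subunit that pairs with Mccc1 (-0.13 ± 0.02, adjusted p = 2.80e-04), Mcee, methylmalonyl-CoA epimerase of the propionate arm (-0.16 ± 0.04, adjusted p = 0.00368), Hsd17b10, a dehydrogenase of the isoleucine arm (-0.13 ± 0.03, adjusted p = 0.0109), and Slc43a2, a transporter of large neutral amino acids (-0.12 ± 0.03, adjusted p = 0.0245). Without the 2 GC-shifted libraries Mccc2 (adjusted p = 0.00244) and Mcee (adjusted p = 0.0121) passed, and Hsd17b10 (adjusted p = 0.0957) and Slc43a2 (adjusted p = 0.156) did not. Over all genes 588 of 16017 then passed in this contrast, in place of 1668. The subunits of the carboxylase therefore differed in their calls, with Mccc2 lower in fed mice (25.1 ± 1.55 against 27.4 ± 1.30 CPM, SD, n = 16) and Mccc1 at 30.4 ± 1.31 and 30.0 ± 2.46 CPM.

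Between dark and light, 4 of the 24 passed, a share near the 18.1% of all genes. Klf15, a transcription factor known to drive BCAA catabolic genes in muscle, was higher in the dark by 0.30 ± 0.03 (adjusted p = 4.35e-10), with 36.8 ± 5.72 against 29.4 ± 2.47 CPM (SD, n = 16). It was also higher in DRF over all times by 0.17 ± 0.02 (adjusted p = 1.78e-05). Without the 2 GC-shifted libraries these Klf15 differences were 0.29 (adjusted p = 2.77e-09, limma) and 0.16 (adjusted p = 3.57e-05, limma). Slc7a5, the light chain of the main BCAA transporter at the blood-brain barrier, was lower in the dark by 0.11 ± 0.03 (adjusted p = 0.00915), Mccc2 by 0.071 ± 0.022 (adjusted p = 0.0193) and Acat1, the thiolase of the isoleucine arm, by 0.059 ± 0.019 (adjusted p = 0.0269). Without the 2 GC-shifted libraries 10 of the 24 passed, and over all genes 4915 in place of 2899.

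The rhythm tests called 10 of the 24 in NRF, where 30.7% of all genes were called, and 1, Klf15, in DRF, where 1.03% were. Among those called in NRF, Slc7a5 peaked at ZT10.4 ± 0.3 h with a cosine amplitude of 0.28 (adjusted p = 7.09e-09), Mccc2 at ZT7.02 ± 0.40 h with 0.12 (adjusted p = 2.39e-06), Mcee at ZT4.48 ± 0.66 h with 0.13 (adjusted p = 2.63e-04) and Klf15 at ZT14.6 ± 0.4 h with 0.26 (adjusted p = 2.09e-06). In DRF Klf15 peaked at ZT16.2 ± 0.5 h with an amplitude of 0.21 (adjusted p = 0.00132). The rhythms of the regimens differed for 6 of the 24, against 11% of all genes, with the smallest adjusted p for Slc7a5 (5.94e-06), whose amplitude in DRF was 0.018 ± 0.030, followed by Mccc2 (6.02e-04) and Mcee (9.63e-04). Without the 2 GC-shifted libraries Hsd17b10 lost this call (adjusted p = 0.132) and Klf15 gained it (adjusted p = 0.0442), and a cosine test again called Klf15 in DRF (adjusted p = 4.13e-04).

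**Figure D5:**
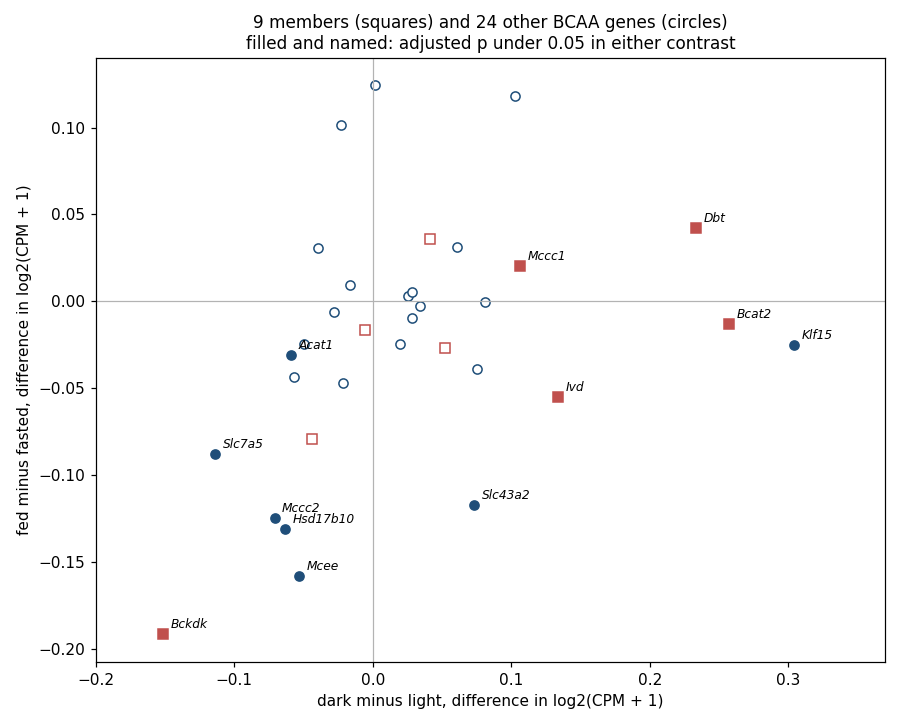
Dark-minus-light against fed-minus-fasted differences in log2(CPM + 1) for the 9 members (squares) and the 24 other genes (circles), filled and named where the adjusted p was under 0.05 in either contrast. Bckdk lies at the lower left, with Mcee, Mccc2 and Hsd17b10 between it and the centre, and Dbt, Bcat2, Ivd, Mccc1 and Klf15 lie to the right.

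The genes whose 14 group means were most like those of a member, by Pearson r, were Tmem175 (0.95), Gm15411 (0.95) and Dhcr7 (0.92) for Bckdk, and Ak3 (0.95), Plcl1 (0.94) and Paqr8 (0.92) for Dbt. For Bcat2 they were Plod1 (0.96), Slc39a3 (0.95) and Csnk1e (0.95), for Ivd Atp6v0e (0.93), Timp4 (0.90) and Htra1 (0.89), and for Mccc1 Sesn3 (0.93), Akap9 (0.93) and Golga4 (0.93). The r of these 15 pairs lay between 0.87 and 0.96 when the 2 GC-shifted libraries were left out. No test goes with these values.

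Markers of the tissue and of other tissues are given because they can move with these contrasts. The 6 markers of the anterior hypothalamus, Avp, Vip, Oxt, Sim1, Six6 and Rgs16, were all present, with a summed level of 499.1 CPM in the dark and 570.5 in the light, and the 2 pituitary genes in the table, Gh and Prl, summed to at most 0.815 CPM in any mouse. Neuronal markers summed to 3094 CPM in fed and 2959 in fasted mice, and astrocyte markers to 1347 and 1345. Thalamic markers were at 97.7 and 77.4 CPM and blood markers at 383.5 and 290.8 in fed and fasted mice, and none of these 2 lists' genes passed the fed-minus-fasted test. Of 4 microglial markers 2 were lower in the dark and 1 higher in fed mice. Of 5 astrocyte markers 1 was higher in the dark and 1 lower in fed mice. Of 3 ependymal markers Foxj1 was higher in the dark, by 0.246 (adjusted p = 0.00688, limma). Averaged over all times, all 3 blood markers were higher in DRF than in NRF, Hba-a1 by 0.574 (adjusted p = 0.00797, limma). Lower in DRF were 2 of 4 oligodendrocyte, 1 of 2 thalamic, 1 of 6 anterior hypothalamic and 1 of 4 microglial markers. Of 4 neuronal markers 1 was higher and 1 lower in DRF, as for the 5 astrocyte markers. Striatal markers reached 341.1 CPM in 1 mouse, against a mean of 58.2 in fed mice. The part of dissection in the members' differences was not tested.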

How the data were processed

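RNA of 56 mice was sequenced as paired-end poly(A) libraries. The authors cleaned the reads with SOAPnuke, aligned them with HISAT2 and Bowtie2 to GRCm38.p6, counted them with RSEM, normalized by TMM in edgeR and deposited a value per gene and mouse named TPM. These deposited values are a compressed score: they are proportional to log2(1 + CPM) divided by gene length, rescaled to between 999333 and 999720 per mouse, and therefore not proportional to reads. The design had allowed for such a score in case the values proved to be compressed. The scale was undone with GENCODE vM21 exon lengths. It gave whole reads (within 0.05, in at least 90% of mice) for 15202 genes, and 795 genes set the worth of 1 read. Gene symbols came from NCBI Gene IDs.

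Genes with a deposited value of at least 1 in 80% of mice were tested: 16245 for rhythm, 16017 in limma. Rhythm used JTK_CYCLE (periods 20, 24 and 28 h) and Lomb-Scargle on the deposited values, written out here because MetaCycle was not at hand, combined by Fisher's method. Other tests used limma 3.58.1 in R 4.3.3 with a trend in the variance on log2(CPM + 1), with 14 group means or a 24-h cosine over all 56 mice. All p-values are two-sided and Benjamini-Hochberg adjusted over all genes tested, and 0.05 was the threshold. Group and replicate came from the labels. The scripts were tested on simulated data. Alternatives were another pseudocount (0.1), no filter, the deposited scale, other rhythm tests, a replicate block and voom on the recovered reads. Another was removal of library trends with GC content, length and mean level. Times, replicates or, chosen after seeing the data, 2 libraries were also left out. All 9 members are named; other pathway genes came from a list of 24 by role, of which at most 6 past the threshold per comparison are given. The members and lists were chosen with earlier results of these data known. Depth was 29591266 to 34493344 normalized reads per mouse, and counts per gene limit precision only for the lowest members.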

Additional observations from a re-analysis of the deposited data

Results flagged for a closer look

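Of 126 groups of 4 mice (9 members in 14 groups), 6 held a mouse far from the other 3 by Dixon's criterion, about what chance gives at 1 in 20. These were Bckdha in DRF ZT12 replicate 2 (32.6 CPM), Dbt in NRF ZT4 replicate 1 (23.0 CPM), Bckdk in NRF ZT20 replicate 3 (35.3 CPM), Ivd in DRF ZT20 replicate 4 (113.4 CPM), Mccc1 in NRF ZT8 replicate 3 (29.3 CPM) and Hibch in NRF ZT4 replicate 2 (20.2 CPM).

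Bckdk differed between the regimens in its 24-h rhythm (adjusted p = 4.00e-04, limma) and in its change from light to dark (adjusted p = 7.00e-05, limma). The second test is the fed-minus-fasted contrast.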

How the results depend on the processing

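Over 972 alternative values for the single members, 871 kept their direction and side of the threshold, 36 lost a call, 21 gained one and 44 changed sign, all of the last in values that passed no test either way. The fed-minus-fasted call of Bckdk passed in all 19 alternatives and its difference in rhythm in all 18. The number of members rhythmic in DRF (1) became 2 without ZT4 or with voom, 0 without ZT16, ZT20 or ZT24 or by Lomb-Scargle alone, 5 by an F test over the 7 times, and 0 when a replicate was left out. Those rhythmic in NRF (5) became 3 with library trends removed, 0 by Lomb-Scargle alone, and 3 to 5 without a replicate (3 without replicate 1). Differing rhythms (1) became 3 with trends removed, while over all genes 1765 of 16017 became 2724 of 15905. The level difference between regimens (1) was lost without ZT0 and ranged from 0 to 1 without a replicate. Over all genes 1691 of 16017 became 989 without ZT0 and 388 to 2347 without a replicate. Fed-minus-fasted calls (1) became 2 with trends removed or with ZT0, ZT12 and ZT24 included, and 1 to 2 without a replicate (2 without replicate 1). Over all genes 1668 of 16017 became 1699 of 15905 with trends removed. With ZT0, ZT12 and ZT24 included 2758 passed, and 180 to 2328 without a replicate (2328 without replicate 1). Dark-minus-light calls (5) became 3 without ZT8, 4 to 5 without a replicate, 7 without ZT16 (Bckdha and Hibch added) and 6 without ZT0 or on the deposited scale (Bcat1 added). Over all genes 2899 of 16017 became 701 without ZT8, 1237 to 2180 without a replicate, 4543 without ZT16 and 2677 without ZT0. On the deposited scale 2787 of 16245 passed. Calls at single times (4) became 2 without ZT0, ZT16, ZT24 or the 2 GC-shifted libraries, 1 with a fit per time point, and 1 to 4 without a replicate (1 without replicate 3 or 4). The cause was not tested.

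The regimen difference in level changed sign for Dbt to 0.047 with trends removed, 0.00032 without ZT0, 0.014 without ZT12, 0.012 without ZT16, 0.0030 without ZT24, 0.0021 on the deposited scale and 0.025 without the GC-shifted libraries. For Bcat2 it became 0.030 without ZT0, 0.0051 without ZT8, 0.0042 without ZT20 and 0.00088 without ZT24, for Bckdk 0.047 without ZT4, 0.015 without ZT8 and 0.0012 on the deposited scale, and for Bckdha -0.0085 without ZT24 and -0.00052 without the GC-shifted libraries. The fed-minus-fasted value of Bcat2 became 0.030 with trends removed, 0.055 without ZT8, 0.066 without ZT16, 0.037 with boundary times and 0.018 without the GC-shifted libraries. That of Bckdhb became 0.014 with trends removed and 0.015 with boundary times, that of Dbt -0.011 with trends removed, -0.0023 without ZT16 and -0.0068 without the GC-shifted libraries, and that of Mccc1 -0.060 with trends removed. The dark-minus-light value of Bckdhb became 0.012 with trends removed, 0.010 without ZT4, 0.034 without ZT20 and 0.0041 on the deposited scale, and without ZT20 those of Bckdha and Hibch became 0.026 and -0.050. With a replicate left out, the level difference ranged from -0.030 to 0.020 for Bcat2, -0.0072 to 0.055 for Bckdha, -0.034 to 0.027 for Dbt, -0.020 to 0.0045 for Bckdk and -0.0069 to 0.041 for Ivd, the fed-minus-fasted value from -0.048 to 0.018 for Bcat2, -0.0012 to 0.073 for Dbt and -0.0017 to 0.041 for Mccc1, and the dark-minus-light value from -0.025 to 0.010 for Bckdhb. All values are log2.

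Same-numbered mice of different groups correlated in their deviations at a median r of 0.0063 (102 of 364 pairs over 0.1). For other pairs it was -0.0040 (312 of 1092 over 0.1). These medians show no pairing by replicate number over all pairs, but cannot show that no mice were paired. A fit with the replicate number as a block changed no count of members in the limma contrasts (1 for differing rhythms, 1 for level, 1 for fed minus fasted, 5 for dark minus light and 4 at single times), and a cosine test with that block called 1 member in DRF and 4 in NRF. Depth is lowest for Bcat2, whose low count of 163 reads limits its precision most.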
